A study of Mus musculus with 18 samples.

Results

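The genes described here encode the proteins of the splicing machinery that carry the family names Snrp, Lsm, Sf3, Srsf and Hnrnp. They were chosen by symbol, as all genes whose symbol is Snrp, Hnrnp, Lsm, Sf3a, Sf3b or Srsf followed by the member's own letters or number, with a mean of at least 10 normalized counts over all 18 libraries. The rule found 64 of the 48440 genes in the table, and every gene that matched by symbol also passed the level. The annotation lists 63 of them as coding genes and Snrpert as a processed pseudogene, a copy of Snrpe. Grouped by role, they are 8 Sm ring proteins, 4 other proteins of the U1 and U2 particles, 11 LSm proteins, 9 subunits of SF3A and SF3B, 11 SR proteins, 7 hnRNPs of the A/B and D families, 4 of the F and H family, 9 other hnRNPs and the copy.

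Introns are removed from pre-mRNA by the spliceosome, which is built from small RNAs packed with proteins. Each of the main spliceosomal RNAs is clasped by a ring of Sm proteins, except U6, which carries a ring of LSm proteins, and SF3A and SF3B hold the U2 particle at the branch point. SR proteins and hnRNPs bind the pre-mRNA itself and shift the choice of splice sites, often in opposite directions, and neurons are known for their wide use of alternative exons.

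In a study of short-term memory, RNA was sequenced from brains of Diversity Outbred mice, which are bred so that every animal inherits its own mixture of founder genomes. Mice labelled high performing were compared with mice labelled low performing in 3 tissues, with 3 libraries in each of the 6 groups: high and low performers in the tissue labelled MDTH, high and low performers in the tissue labelled HPF, and high and low performers in prefrontal cortex (PFC). The labels do not spell out MDTH or HPF, name the memory test, give age or sex, or say that libraries of a group are separate mice, so p-values measure only the spread between these samples, which may be technical. No treatment, transgene or deletion is named for any group. Libraries were made with the TruSeq stranded mRNA kit.

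Depth, estimated from low non-zero values, was 42941011 to 47535125 reads in MDTH, 76705412 to 88633785 in HPF and 41156216 to 48838298 in PFC. The thalamic genes Slc17a6 and Tcf7l2 marked MDTH (32071 to 55025 and 23166 to 37512 normalized counts), where the cortical gene Emx1 lay near 0 (4.43 to 15.3 normalized counts), and HPF high performer 2 stood apart from the other HPF libraries, with 3954 for Slc17a6 and 2984 for Tcf7l2 against 132 to 392 and 151 to 301. In MDTH and PFC the style of the library names separated all high from all low performers, so performance and whatever that style records cannot be told apart. The name numbers 44, 88 and 165 recur among the high performers of all 3 tissues, and 130 and 163 each recur in low performers of 2 tissues. In HPF, lane L003 held high performers only, L005 low performers only, and L004 had 1 of each. The share of counts in mitochondrial genes was 5.53 to 6.40% in high and 6.52 to 8.52% in low performers of MDTH, 6.51 to 8.63% and 4.66 to 6.25% in HPF, and 5.25 to 5.59% and 8.25 to 8.79% in PFC; its part in the results below was not tested.

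Members rose and others fell in high performers of MDTH and of PFC, and no member passed in HPF. Differences are given as log2 of high over low from limma fits to log2(normalized count + 1), with the standard error (SE) of the difference. A gene is said to have passed, to have risen or to have fallen where its p, adjusted over all genes tested in that tissue by the Benjamini-Hochberg method, was below 0.05. In MDTH, 14 members rose (21.9%) and 15 fell (23.4%), where 12.5% of all 17861 genes tested rose and 12.5% fell. In PFC, 4 members rose (6.25%) and 6 fell (9.38%), where 3.22% of 17991 genes rose and 2.63% fell. In HPF no member passed by limma, where 0.0111% of 18082 genes rose and 0.00553% fell; 4 members had an unadjusted p below 0.05, 1 higher and 3 lower. The median member difference was 0.083 in MDTH, -0.031 in HPF and 0.016 in PFC, and that of all genes was -0.0031, -0.0071 and -0.0089 in the same order. The sign of these small medians is not firm: in MDTH it was -0.0031 with equal totals without mitochondrial genes and -0.021 with a GC trend removed, and with single libraries left out it ran from -0.056 to 0.015 in HPF and from -0.0029 to 0.063 in PFC.

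The 10 members that passed in PFC also passed in MDTH, each in the same direction there. They make up 100% of the members called in PFC and 34.5% of those called in MDTH. Of all genes called, 760 were called in both tissues in the same direction, which is 72.2% of the PFC calls and 17% of the MDTH calls. Snrpe, Hnrnpa0, Snrpd2 and Srsf3 were higher in high performers, and Snrpd3, Srsf2, Hnrnpul1, Sf3b4, Lsm12 and Lsm4 were lower. The high performers of the 2 tissues share name numbers, so the tissues are not independent of each other. Bulk RNA does not tell fewer cells of a type from less RNA per cell.

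**Figure D1:**
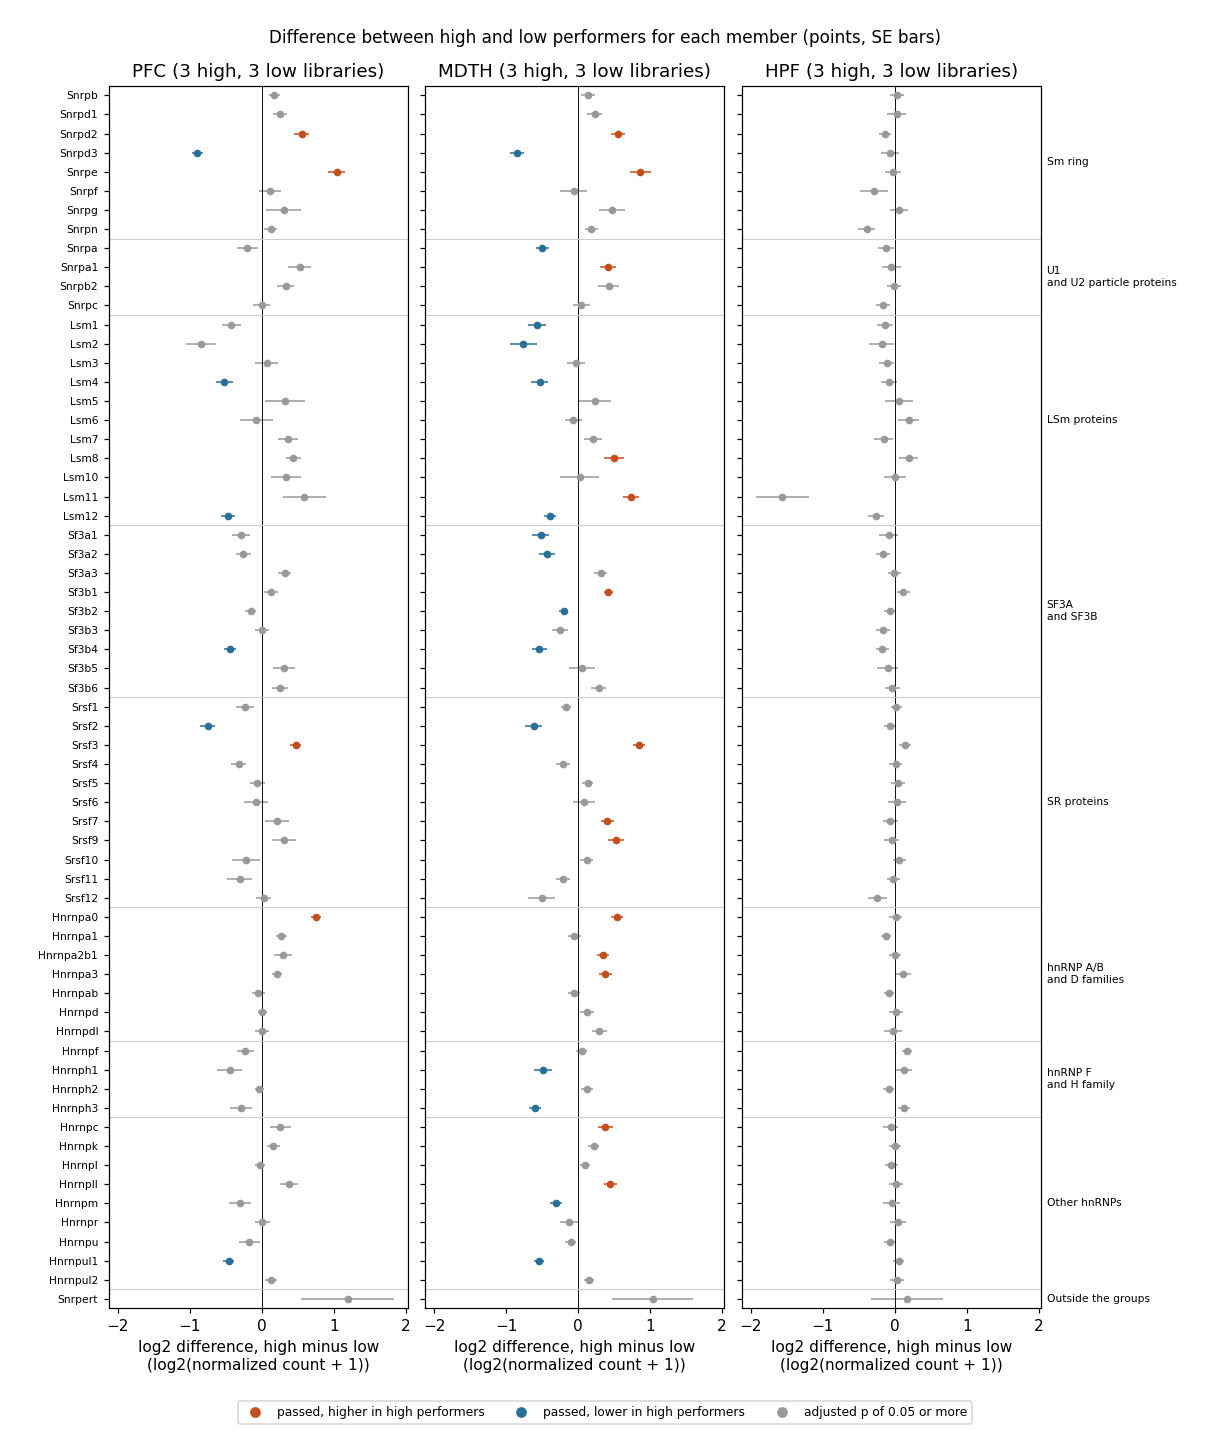
Log2 difference of high over low performers (x axis) for the 64 members by role (y axis), 1 panel per tissue, with SE bars; orange points passed as higher, blue points passed as lower and grey points did not pass. Snrpd3 lies at -0.86 in MDTH and -0.90 in PFC and at -0.07 in HPF, and coloured points fall on both sides of 0 in MDTH and PFC only.

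To show the sequence in front of genes that moved in opposite directions in the same libraries, the promoters of Snrpd3 and Srsf2, which fell in MDTH and PFC, and of Hnrnpa0 and Snrpe, which rose in both, are printed from RefSeq (GRCm38.p6), 5′ to 3′ on the gene's strand, with 250 bases before and 20 after the RefSeq start. They lie at chr10:75517792-75518061 on the plus strand (Snrpd3) and, on the minus strand, at chr11:116853075-116853344 (Srsf2), chr13:58128537-58128806 (Hnrnpa0) and chr1:133610261-133610530 (Snrpe). By the GENCODE annotation Snrpd3 begins earlier, at chr10:75517551, so its printed stretch lies within the annotated gene. Capitals mark matches on either strand to the motifs searched: the ETS core CCGGAAG, the GC box GGGCGG, the CCAAT box, the NRF1 motif GCATGCGC, the YY1 motif AAGATGGC and the TATA box TATAAA.
Snrpd3: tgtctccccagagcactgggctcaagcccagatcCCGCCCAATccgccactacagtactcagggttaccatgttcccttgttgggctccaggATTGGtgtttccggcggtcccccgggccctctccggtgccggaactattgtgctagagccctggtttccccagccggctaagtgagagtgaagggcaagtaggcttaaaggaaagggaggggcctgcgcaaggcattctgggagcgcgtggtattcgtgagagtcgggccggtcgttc
Srsf2: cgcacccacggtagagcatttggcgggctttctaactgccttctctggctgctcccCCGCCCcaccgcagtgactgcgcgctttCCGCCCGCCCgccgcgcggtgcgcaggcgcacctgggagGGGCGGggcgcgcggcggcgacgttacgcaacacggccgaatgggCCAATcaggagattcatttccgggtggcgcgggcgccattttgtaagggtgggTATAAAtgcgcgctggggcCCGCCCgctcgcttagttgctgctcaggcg
Hnrnpa0: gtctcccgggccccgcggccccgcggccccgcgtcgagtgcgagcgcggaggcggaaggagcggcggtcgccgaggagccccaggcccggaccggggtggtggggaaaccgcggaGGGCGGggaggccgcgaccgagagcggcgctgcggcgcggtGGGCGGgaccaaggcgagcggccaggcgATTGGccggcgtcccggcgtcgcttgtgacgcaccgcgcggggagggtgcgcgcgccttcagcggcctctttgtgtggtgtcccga
Snrpe: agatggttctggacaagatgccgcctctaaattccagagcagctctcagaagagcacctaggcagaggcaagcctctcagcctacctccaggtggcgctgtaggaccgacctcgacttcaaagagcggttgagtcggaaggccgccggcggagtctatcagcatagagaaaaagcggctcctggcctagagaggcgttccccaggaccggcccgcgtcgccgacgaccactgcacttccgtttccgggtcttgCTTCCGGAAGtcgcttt

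Among the 4 printed, Snrpe alone holds the ETS core, as a palindrome in which matches on the 2 strands overlap just after the start. Srsf2 alone of the 4 holds a TATA box, 29 bases before the start. Srsf3, which rose in both tissues and is not printed, holds one too, 18 bases before its start. CCAAT boxes lie in the promoters of Snrpd3, Srsf2 and Hnrnpa0, and in Snrpd3 a CCAAT box overlaps a GC box. Promoters were found by symbol for 54 of the 64 members. The ETS core was in a promoter of 17 of those 54 (31.5%), against 17.6% of 11793 expressed coding genes and 8.9% of all 32851 promoters in the table. The GC box was in 75.9% of the members, 66.0% of expressed coding genes and 35.7% of all promoters, and the CCAAT box in 50%, 42.5% and 37.4%. The NRF1 motif was in 11.1%, 5.5% and 2.7%, the YY1 motif in 5.6%, 4.6% and 2.7%, and the TATA box in 13.0%, 9.1% and 13.6%. Median GC content was 61.0% in the members' promoters, 60.3% in those of expressed coding genes and 52.7% in all promoters.

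In the Sm ring, 2 of 8 members rose and 1 fell in MDTH, the same 3 genes did so in PFC, and none passed in HPF. Snrpd3 (ENSMUSG00000020180, chr10:75517551-75537381, plus strand) encodes SmD3. In MDTH it had 1861, 2157 and 2049 normalized counts in high performers 1 to 3, against 3364, 3765 and 3851 in low performers 1 to 3, and in PFC it had 2105, 2053 and 2131 in high performers, against 4035, 3757 and 3934 in low performers. All high performers lay below all low performers in both tissues. The log2 difference was -0.86 in MDTH (SE 0.09, adjusted p = 0.00342, 1.81-fold lower) and -0.90 in PFC (SE 0.08, adjusted p = 0.00893, 1.86-fold lower). In HPF the values were 2759, 3155 and 2417 in high and 2687, 3276 and 2757 in low performers, which overlap, with a log2 difference of -0.07 (SE 0.13, adjusted p = 0.849). Snrpd3 overlaps the antisense gene Gucd1, and whether strand was used in counting is not given in the sources used here. Gucd1 itself had 583 to 757 normalized counts in high and 585 to 705 in low performers of MDTH, and 568 to 719 in high and 587 to 663 in low performers of PFC.

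Snrpe (ENSMUSG00000090553, chr1:133603871-133610291, minus strand), which encodes SmE, went the other way. It had 702, 804 and 656 normalized counts in high performers of MDTH, against 366, 444 and 377 in low performers, and 750, 770 and 760 in high performers of PFC, against 346, 392 and 371 in low performers. Its PFC groups were the farthest apart of all members that passed, with a log2 difference of 1.04 (SE 0.12, adjusted p = 0.0136, 2.06-fold higher), and the difference was 0.86 in MDTH (SE 0.14, adjusted p = 0.00815, 1.82-fold higher). In HPF high performers had 837, 827 and 811, within the 766, 819 and 948 of low performers. The pseudogene copy Snrpert had 3 to 24 normalized counts in any library, and reads of the pair may have been split between them.

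Snrpd2 (ENSMUSG00000040824, chr7:19149722-19153542, plus strand) encodes SmD2, the partner of SmD1 in ring assembly. It rose in MDTH, with 1453, 1536 and 1426 normalized counts in high performers against 1028, 1078 and 915 in low performers (log2 difference 0.55, SE 0.10, adjusted p = 0.0109). In PFC it had 1509, 1742 and 1760 against 1114, 1184 and 1104 (0.56, SE 0.10, adjusted p = 0.0306). No library of one group reached into the other in either tissue. In HPF the order was the other way for the means, with 1891, 1723 and 1759 in high and 2003, 1878 and 2047 in low performers, and the groups overlapped. Within 1 ring, then, the SmD3 transcript was lower where those of SmE and SmD2 were higher, in the same libraries.

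Snrpn (ENSMUSG00000102252, chr7:59982495-60140219, minus strand), an imprinted gene that encodes the neuronal Sm protein SmN, was the most abundant member per length. Its mean over the 18 libraries was 19243 normalized counts per kilobase of exon, against 1318 for Snrpb, whose products SmB and SmB′ take the same place in the ring. The 2 genes encode near-identical proteins and could share reads, and Snrpn overlaps Snurf on the same strand, so both levels are uncertain. In HPF, Snrpn had 30612, 29521 and 24479 normalized counts in high performers, against 38331, 38963 and 33432 in low performers. The groups did not overlap, but the log2 difference of -0.39 (SE 0.12) did not pass (adjusted p = 0.259). It was -0.45 between the single high and the single low performer of lane L004. In MDTH the high performers had 46832.1 to 49480.5 and the low performers 39475.7 to 46389.9, without overlap and in the opposite order to HPF. In PFC they had 46456 to 50178 and 42468 to 48467, which overlap, and neither tissue's difference passed. In the limma fit to all 18 libraries the performance difference itself differed between tissues. It did so for MDTH minus HPF (0.57, adjusted p = 0.00816) and for HPF minus PFC (-0.51, adjusted p = 0.0278).

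**Figure D2:**
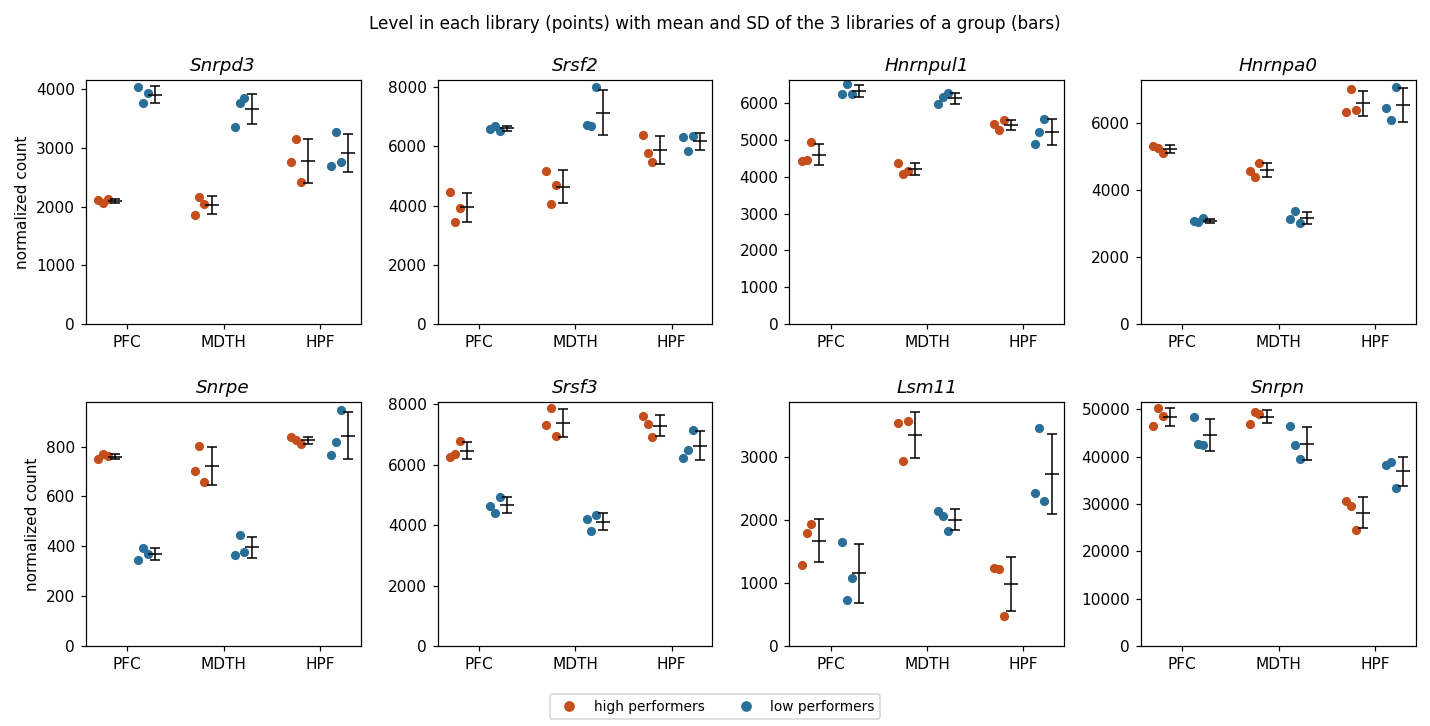
Normalized counts (y axis) of 8 members in every library, high performers left of low performers within each tissue (x axis), with the mean and SD of each group of 3. Snrpd3, Srsf2 and Hnrnpul1 lie lower and Hnrnpa0, Snrpe and Srsf3 higher in high performers of MDTH and PFC with no overlap, and Lsm11 and Snrpn lie lower in high performers of HPF.

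Of the 4 other U1 and U2 proteins, 1 rose and 1 fell in MDTH and none passed in PFC or HPF. Snrpa, which encodes the A protein of the U1 particle, which binds a stem-loop of U1 RNA, had 1742, 1458 and 1630 normalized counts in high performers of MDTH, against 2303, 2307 and 2208 in low performers. That is a log2 difference of -0.50 (SE 0.09, adjusted p = 0.0115) with no overlap. Snrpa1, which encodes the A′ protein of the U2 particle, rose in MDTH by 0.41 (SE 0.11, adjusted p = 0.0384). Its PFC difference of 0.53 lay among the first outside the threshold there (adjusted p = 0.0993).

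Of the 11 LSm proteins, 2 rose and 4 fell in MDTH, and 2 fell in PFC. Lsm4, a subunit of both the nuclear and the cytoplasmic ring, had 581, 647 and 512 normalized counts in high performers of MDTH, against 828, 857 and 831 in low performers (log2 difference -0.54, SE 0.12, adjusted p = 0.0212). In PFC it had 844, 731 and 687 against 1103, 1038 and 1105 (-0.52, SE 0.12, adjusted p = 0.0496), just inside the threshold. Lsm12, an LSm-domain protein outside those rings, had 1642, 1678 and 1747 against 2294, 2250 and 2123 in MDTH (-0.40, SE 0.08, adjusted p = 0.0143). Its PFC values were 1528, 1455 and 1530 in high and 2311, 2016 and 1932 in low performers (-0.47, SE 0.10, adjusted p = 0.0437). For both genes all high performers lay below all low performers in both tissues.

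The transcripts of the 2 subunits that tell the LSm rings apart moved in opposite directions in MDTH. Lsm1, the subunit of the cytoplasmic ring that acts in mRNA decay, had 512, 599 and 661 normalized counts in high performers, against 899, 859 and 869 in low performers (-0.57, SE 0.13, adjusted p = 0.0191). Lsm8, the subunit of the nuclear ring on U6 RNA, had 535, 516 and 518 against 334, 432 and 353 (0.50, SE 0.14, adjusted p = 0.0450). Lsm2, which belongs to both rings, fell by 0.77 in MDTH (SE 0.19, adjusted p = 0.0256). In PFC, Lsm8 at 0.44 (adjusted p = 0.0628) and Lsm2 at -0.85 (adjusted p = 0.0654) were the first members outside the threshold, each with groups that did not overlap.

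Lsm11 (ENSMUSG00000044847, chr11:45928269-45944935, minus strand), a subunit of the U7 particle that trims histone mRNAs at their ends, differed in direction between tissues. In MDTH it had 3545, 2939 and 3579 normalized counts in high performers, against 2143, 2059 and 1821 in low performers. In HPF it had 1245, 1231 and 485 against 2427, 3467 and 2300, and in PFC 1286, 1800 and 1939 against 1659, 737 and 1075. High performers thus lay above low performers in MDTH, below them in HPF and among them in PFC. The difference passed in MDTH (0.74, SE 0.11, adjusted p = 0.00638, 1.67-fold higher) and not in HPF (-1.57, SE 0.37, adjusted p = 0.194, 2.96-fold lower). With the spread estimated over all 18 libraries the call moved, to an adjusted p of 0.104 in MDTH and of 0.0275 in HPF. Within lane L004 of HPF the log2 difference of the single pair was -2.24.

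SF3A and SF3B had 1 higher and 4 lower members of 9 in MDTH, 1 lower in PFC and none in HPF. Sf3b4, whose product contacts pre-mRNA near the branch point, had 1753, 1469 and 1771 normalized counts in high performers of MDTH, against 2565, 2415 and 2266 in low performers (-0.54, SE 0.10, adjusted p = 0.0129). In PFC it had 1633, 1564 and 1739 against 2268, 2232 and 2195 (-0.44, SE 0.08, adjusted p = 0.0333). Sf3b1, the scaffold of SF3B and the subunit that closes on the branch point, was the member that rose in MDTH. It had 13511, 13622 and 13550 in high performers, against 10478, 9736 and 10278 in low performers (0.42, SE 0.07, adjusted p = 0.00707). The high performers of MDTH were close to each other for Sf3b1 and all above the low performers. Sf3a1, the largest protein of SF3A, fell, with 3284, 3149 and 4175 against 4855, 4838 and 5466 (-0.52, SE 0.12, adjusted p = 0.0224). Sf3a2 at -0.44 and Sf3b2 at -0.20 were the other 2 that fell (adjusted p = 0.0302 and 0.0496).

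Of the 11 SR proteins, 3 rose and 1 fell in MDTH, 1 rose and 1 fell in PFC, and none passed in HPF. Srsf3 (ENSMUSG00000071172, chr17:29032628-29043373, plus strand), the smallest member of the family and also an adaptor for mRNA export, had the smallest adjusted p of all members in MDTH. High performers had 7324, 7872 and 6962 normalized counts there, against 4210, 3813 and 4331 in low performers (0.84, SE 0.08, adjusted p = 0.00278, 1.79-fold higher). In PFC they had 6252, 6360 and 6803 against 4632, 4415 and 4943 (0.47, SE 0.08, adjusted p = 0.0240, 1.39-fold higher). In HPF they had 7617, 7353 and 6917 against 6233, 6504 and 7158, which overlap (0.14, adjusted p = 0.519).

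Srsf2 (ENSMUSG00000034120, chr11:116849901-116853094, minus strand), also known as SC35 and a marker of nuclear speckles, fell where Srsf3 rose. It had 5181, 4048 and 4706 normalized counts in high performers of MDTH, against 6713, 6699 and 8023 in low performers (-0.62, SE 0.12, adjusted p = 0.0122, 1.54-fold lower). In PFC it had 4455, 3457 and 3913 against 6604, 6705 and 6539 (-0.75, SE 0.10, adjusted p = 0.0184, 1.69-fold lower). In HPF the 5488 to 6384 of high performers spanned the 5850 to 6350 of low performers. Its antisense neighbour Mfsd11 had 1824 to 2019 normalized counts in high and 1373 to 1688 in low performers of MDTH, the opposite order, and overlapping ranges in PFC (1111 to 1460 and 1183 to 1426). Srsf9 rose in MDTH, with 1048, 1104 and 1147 in high and 826, 687 and 784 in low performers (0.52, SE 0.11, adjusted p = 0.0169), and so did Srsf7 (0.40, SE 0.09, adjusted p = 0.0214).

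The A/B and D families of hnRNPs had 3 of 7 members higher in MDTH and 1 in PFC, none that fell, and none that passed in HPF. Hnrnpa0 (ENSMUSG00000007836, chr13:58125879-58128556, minus strand), an intronless member known for binding AU-rich elements of mRNAs, had 4580, 4383 and 4799 normalized counts in high performers of MDTH, against 3121, 3371 and 3004 in low performers. In PFC it had 5322, 5253 and 5107 against 3061, 3043 and 3159, with the libraries of each group close together. The difference was 0.54 in MDTH (SE 0.08, adjusted p = 0.00612, 1.45-fold higher) and 0.76 in PFC (SE 0.07, adjusted p = 0.00958, 1.69-fold higher). In HPF high performers averaged 6590 ± 384 and low performers 6544 ± 507 (SD, n = 3 each), which is 0.01 apart (SE 0.09, adjusted p = 0.970). Hnrnpa2b1, which binds sorting signals of transported mRNAs, and Hnrnpa3 rose in MDTH by 0.34 (SE 0.08, adjusted p = 0.0203) and 0.38 (SE 0.09, adjusted p = 0.0208).

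The F and H family, which binds runs of G, had 2 of 4 members lower in MDTH and none that passed in PFC or HPF. Hnrnph3 had 1329, 1475 and 1382 normalized counts in high performers of MDTH, against 2027, 2091 and 2243 in low performers (-0.60, SE 0.09, adjusted p = 0.00588). Hnrnph1 fell by 0.49 (SE 0.13, adjusted p = 0.0305). Among HPF members with a higher level in high performers, Hnrnpf had the smallest p, at 5609, 5572 and 5849 against 4927, 5110 and 5166, with groups that did not overlap and a difference of 0.16 (SE 0.07, adjusted p = 0.368).

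Of the 9 other hnRNPs, 2 rose and 2 fell in MDTH and 1 fell in PFC. Hnrnpul1 (ENSMUSG00000040725, chr7:25721165-25754757, minus strand), a relative of the nuclear scaffold protein hnRNP U that takes part in the response to DNA breaks, fell in both. In MDTH it had 4382, 4076 and 4155 normalized counts in high performers, against 5975, 6157 and 6265 in low performers (-0.54, SE 0.07, adjusted p = 0.00429). In PFC it had 4431, 4444 and 4932 against 6239, 6511 and 6251 (-0.46, SE 0.08, adjusted p = 0.0239, 1.38-fold lower). In HPF it had 5448, 5260 and 5537 against 4879, 5215 and 5583, which overlap. Hnrnpll, a regulator of exons that respond to cell activation, rose in MDTH, at 2264, 2244 and 2662 against 1791, 1736 and 1727 (0.44, SE 0.09, adjusted p = 0.0170). Hnrnpc, which binds runs of U, rose by 0.38 (SE 0.10, adjusted p = 0.0350), and Hnrnpm fell by 0.31 (SE 0.08, adjusted p = 0.0349).

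Single libraries weigh on these counts. In PFC no member passed without high performer 2, high performer 3 or low performer 3. Of all genes, 6 rose and 11 fell, 5 and 2, and 4 and 5 in those fits, in that order. The main fit had 579 and 474. Snrpd3 kept log2 differences of -0.88 to -0.91 there, with adjusted p from 0.0546 to 0.0594. Without high performer 1, 2 members rose and 2 fell, beside 118 and 87 of all genes. The member counts were the same without low performer 1, beside 164 and 114. In MDTH 7 rose and 6 fell without low performer 2, and 7 and 7 without low performer 3. It was 8 and 8 without high performer 2, and 7 and 13 without high performer 3. All genes had 1167 and 1210, 867 and 972, 1118 and 1351, and 1290 and 1510 in that order. The main fit had 2233 and 2237. Scaling every library to the same median gave 18 members higher and 12 lower (60% of the calls higher, against 48.3%). All genes shifted the same way under that scaling, to 2851 higher and 1886 lower. Removing a trend with GC content gave 7 members higher and 13 lower (35.0%), beside 2137 and 2110 of all genes.

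**Figure D3:**
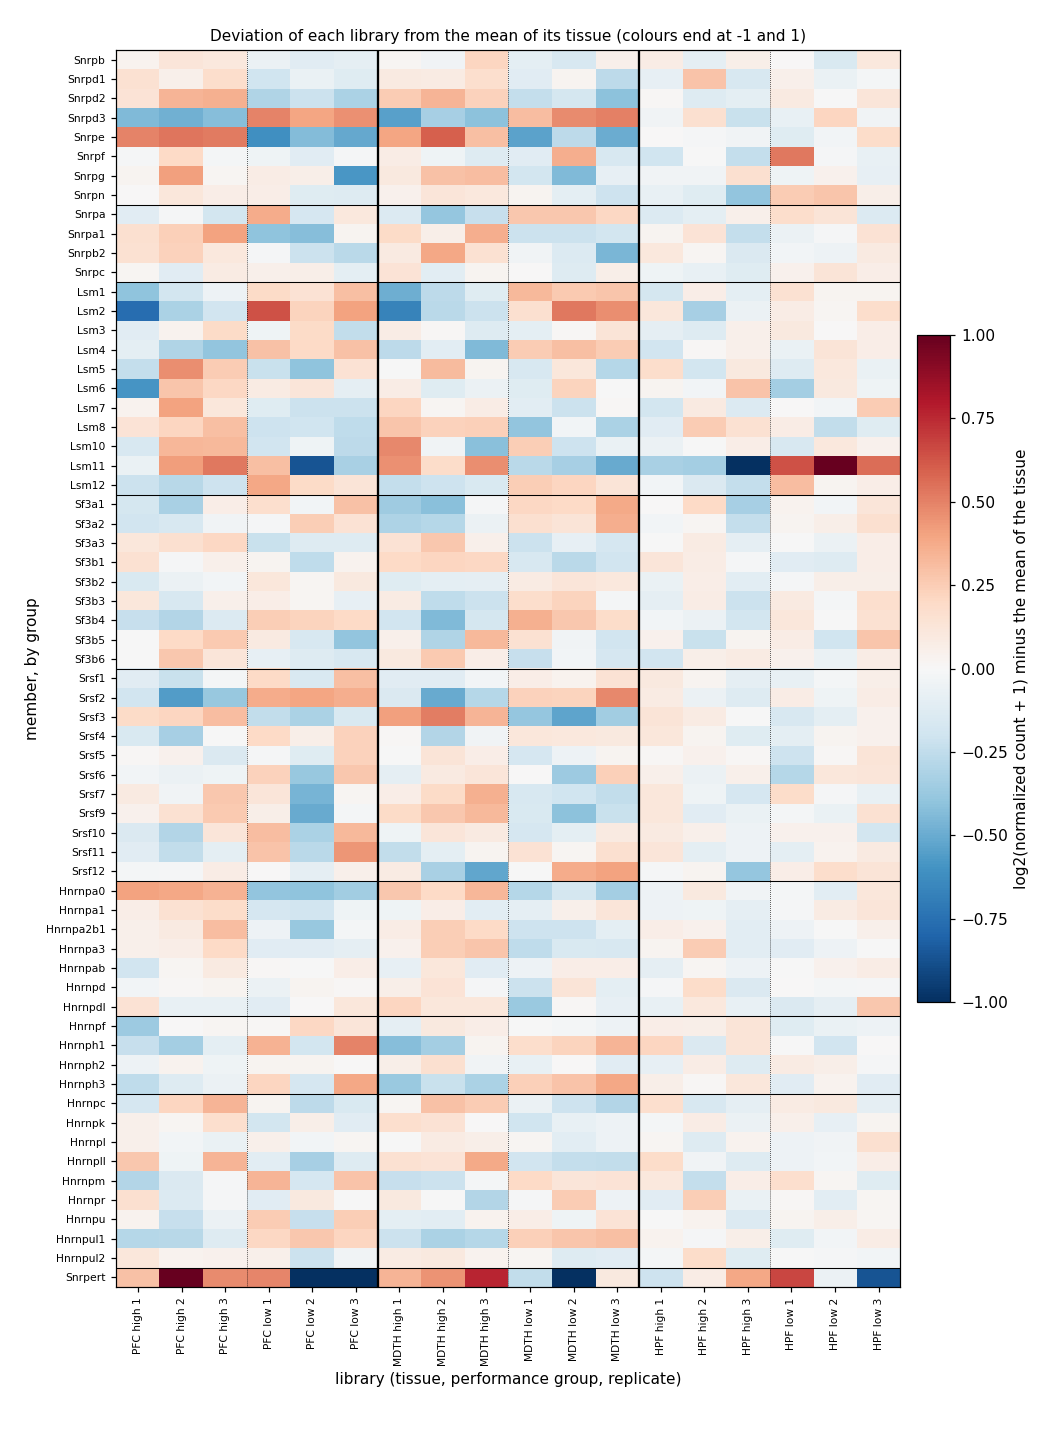
Log2 deviation of each member (rows, by role) from its mean over the 6 libraries of a tissue, in the 18 libraries (columns, high performers left of low performers); colours end at -1 and 1. In MDTH and PFC rows such as Snrpd3 and Snrpe change colour between the groups in all 6 libraries. In HPF the groups did not overlap in 9 rows, Lsm11 and Snrpn among them, but not all of these rows change colour in every library.

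Counted without a test, the 2 groups did not overlap for 42 members in MDTH (65.6%, 25 higher and 17 lower), against 44.2% of all genes tested there. In PFC they did not overlap for 27 members (42.2%, 16 higher and 11 lower), against 30.9%. In HPF this held for 9 members (14.1%, 1 higher and 8 lower), against 20% of genes. The 64 members together took 0.608 to 0.614% of all counts in high and 0.581 to 0.626% in low performers of MDTH, 0.664 to 0.777% and 0.721 to 0.775% in HPF, and 0.622 to 0.651% and 0.574 to 0.638% in PFC, so the ranges overlapped in all 3 tissues.

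The 3 HPF members of smallest p in each direction were Lsm11, Snrpn and Lsm12 lower, and Hnrnpf, Srsf3 and Lsm8 higher. Without high performer 2 no member passed either, and Lsm11 stood at -1.79, Snrpn at -0.43, Lsm12 at -0.26, Hnrnpf at 0.18, Srsf3 at 0.13 and Lsm8 at 0.12. Lsm12 had 1391, 1282 and 1202 normalized counts in high performers, against 1754, 1439 and 1484 in low performers, without overlap (-0.27, SE 0.11, adjusted p = 0.370). Lsm8 had 1232, 1592 and 1483 against 1403, 1126 and 1229, which overlap (0.19, adjusted p = 0.570). Within lane L004, with 1 library of each group and no test, the log2 differences were -0.30 for Lsm12, 0.27 for Lsm8, 0.18 for Hnrnpf, -0.05 for Srsf3, -0.19 for Snrpd3 and -0.15 for Hnrnpa0. Neuronal markers stood beside these values: their summed level was 177684 to 224972 in high and 286314 to 355834 in low performers of HPF, with 6 of 6 markers lower and 0 passed. The HPF sums were also apart for choroid plexus and ependyma markers (7564 to 158189 in high and 4108 to 5895 in low performers). So were those of cortex markers (67000 to 82735 and 97867 to 118822) and hippocampus markers (60567 to 74708 and 54140 to 55962). The part of these markers in the HPF member differences was not tested. In MDTH the summed habenula markers were 1522 to 2062 in high and 4795 to 25559 in low performers (4 of 6 fell), and the summed thalamus markers 223223 to 259190 and 118836 to 160168 (4 of 6 rose and 1 fell). The neuronal sums of MDTH were also apart, at 340701 to 392848 in high and 281373 to 335325 in low performers (1 of 6 rose and 1 fell), as were those of cortex markers (11189 to 18729 and 3865 to 9447, 0 passed) and of hippocampus markers (24806 to 32229 and 16684 to 22971, 1 of 6 rose). In PFC the microglia sums did not overlap, at 9786 to 11806 in high and 12235 to 15052 in low performers (2 of 6 fell). The oligodendrocyte sums of PFC overlapped, at 141240 to 313892 and 154363 to 502868, with 0 of 6 passed, and the choroid plexus sums ran from 1816 to 144152 in high and from 4494 to 122813 in low performers, with 0 passed. The part of these markers in the MDTH and PFC results was not tested either.

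The performance difference, with its sign, was compared between tissues by the interaction term of a limma fit over the 18 libraries. Between MDTH and HPF, 13 members passed, 20.3% of the members against 19% of 18254 genes, so the share was near that of all genes. Of the 13, 7 had the more positive difference in MDTH and 6 had it in HPF. More positive does not mean larger in size: Snrpd3, among the 6, was at -0.86 in MDTH and -0.07 in HPF. With every library scaled to the same median, 15 and 4 passed in those directions. The 3 of smallest p were Hnrnpul1 (MDTH minus HPF -0.60, SE 0.09, adjusted p = 0.000582), Srsf3 (0.70, SE 0.11, adjusted p = 0.000600) and Snrpd2 (0.69, SE 0.12, adjusted p = 0.00136). Between HPF and PFC, 9 members passed (14.1%, against 9.14% of genes), led by Hnrnpa0 (HPF minus PFC -0.75, SE 0.10, adjusted p = 0.000967), Snrpe (-1.07, SE 0.16, adjusted p = 0.00172) and Snrpd3 (0.83, SE 0.14, adjusted p = 0.00347). The test of the difference passed for these 3 genes, and each performance difference was larger in size in PFC than in HPF. Leaving out replicate 1, 2 or 3 of every group left 9, 8 and 2 members that passed between MDTH and HPF. Between HPF and PFC it left 5, 3 and 0. Counts of all genes are not given for these fits or for the equal-median scaling. The changes therefore cannot be read as particular to the members. In HPF, replicate 3 of both groups came from lane L004, the only HPF lane with both groups. Between MDTH and PFC no member passed by limma, against 3.41% of genes, with 6 at an unadjusted p below 0.05. Srsf3 came first there, with a larger increase in MDTH (0.37, SE 0.11, adjusted p = 0.0764), followed by Hnrnpa1 (-0.32, adjusted p = 0.0961) and Srsf12 (-0.53, adjusted p = 0.209). That fit leaves out that name numbers recur across tissues. With a correlation between libraries of the same number, 1 member passed between MDTH and PFC (Srsf3, adjusted p = 0.0431). Between MDTH and HPF 21 passed, and between HPF and PFC 15. Counts of all genes with that correlation are not given either. Tissue went together with depth, name style and lane for HPF, so these cannot be told apart from tissue in comparisons with HPF.

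The members were mostly higher in HPF than in the other 2 tissues. Over high and low performers together, 36 members were higher and 4 lower in HPF than in PFC (62.5% in all, against 45.5% of genes), and 6 were higher and 38 lower in MDTH than in HPF (68.8%, against 58.1%). Between MDTH and PFC, 3 were higher and 15 lower in MDTH (28.1%, against 40.7%). Leaving out replicate 1, 2 or 3 of every group left 9, 12 and 11 in all, and counts of all genes in those fits are not given. The median member difference was 0.25 for HPF minus PFC, -0.34 for MDTH minus HPF and -0.04 for MDTH minus PFC. That of all genes was 0.010, -0.023 and 0.0018 in the same order. The shares of all genes given above count either direction. By role, 6 of 8 Sm ring, 6 of 11 SR, 6 of 9 SF3, 5 of 7 hnRNP A/B and D and 6 of 9 other hnRNP members were higher in HPF than in PFC, as were 4 of 11 LSm proteins, 2 of 4 U1 and U2 proteins and 1 of 4 of the F and H family.

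Lsm8 had the smallest p for both differences of MDTH. It averaged 448 normalized counts in MDTH, 1344 in HPF and 741 in PFC, with a log2 difference of -1.60 for MDTH minus HPF (SE 0.08, adjusted p = 3.08e-10, 3.03-fold lower), -0.73 for MDTH minus PFC (SE 0.08, adjusted p = 3.49e-06) and 0.87 for HPF minus PFC (SE 0.08, adjusted p = 6.94e-07). Its order of levels, HPF above PFC above MDTH, therefore held at each step. Hnrnpa0 averaged 3876 in MDTH, 6567 in HPF and 4157 in PFC, with -0.78 for MDTH minus HPF (SE 0.05, adjusted p = 2.19e-09) and 0.71 for HPF minus PFC (SE 0.05, adjusted p = 2.21e-08). Srsf9 was 2.09-fold lower in MDTH than in HPF (-1.07, SE 0.09, adjusted p = 8.08e-08). Hnrnpa1, the best-studied repressor among the hnRNPs, and Hnrnpll were lower in MDTH than in PFC, by -0.35 (SE 0.05, adjusted p = 3.30e-05) and -0.44 (SE 0.08, adjusted p = 0.000230). Hnrnpa2b1 was 1.49-fold higher in HPF than in PFC (0.57, SE 0.07, adjusted p = 5.79e-06). Snrpn, named here after its values were seen, ran against most members, with 0.50 for MDTH minus HPF (adjusted p = 1.04e-05) and -0.53 for HPF minus PFC (adjusted p = 1.08e-05).

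**Figure D4:**
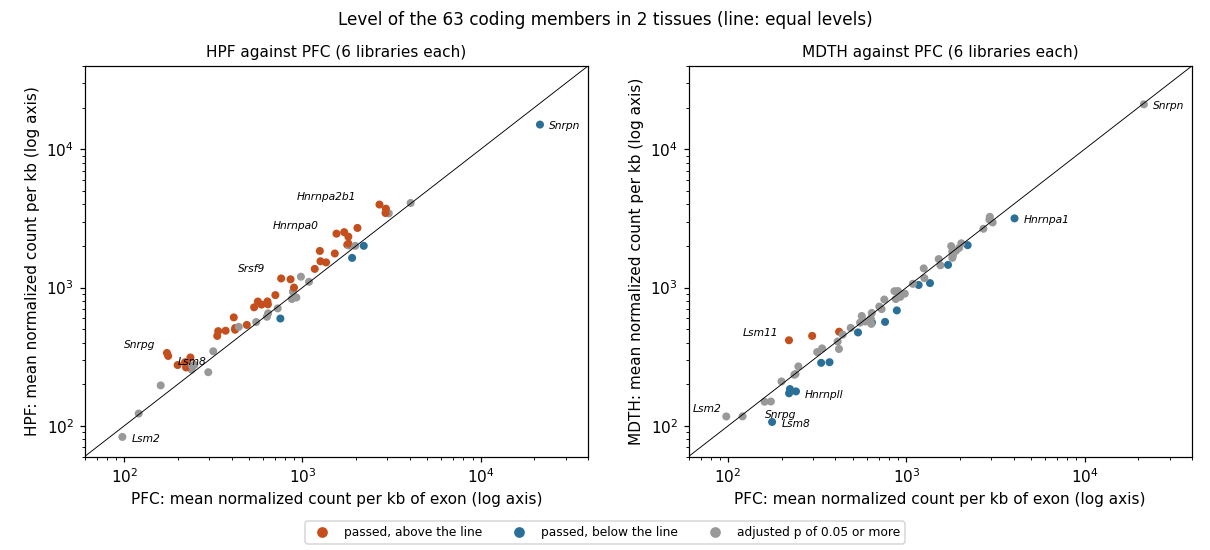
Mean normalized counts per kilobase of exon of the 63 coding members, HPF against PFC and MDTH against PFC, on log axes with the line of equality. Snrpn stands apart at the top, and Lsm8 lies above the line in HPF and below it in MDTH.

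Per kilobase of exon, the mean levels of the 63 coding members ran from 99.2 normalized counts for Lsm2 to 19243 for Snrpn, with a median of 710.7. After Snrpn came Hnrnpa1 (3766), Hnrnpa3 (3302), Hnrnpk (3162), Srsf5 (3148) and Hnrnpa2b1 (3116), so hnRNPs filled most of the top. Between libraries, Lsm8 and Lsm11 varied most, with coefficients of variation of 47.9% and 47.0%, and Snrpc and Hnrnpd least, with 6.39% and 6.67%. The members lie on 18 chromosomes. By the annotation, 19 of them overlap a gene on the other strand, 7 overlap another gene on their own strand, and 12 have a divergent gene start within 500 bases.

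Across genes, which are not independent replicates and share the libraries, Spearman's rho between exon GC content and the log2 difference was -0.20 over all genes and -0.33 over the members in MDTH, -0.06 and -0.42 in HPF, and -0.20 and -0.23 in PFC. In MDTH, with all genes cut into 4 equal bins by GC content, the bin of least GC held 28 of the members, of which 10 rose and 2 fell. The 3 bins above it held 18, 12 and 6 members, with 1 higher and 5 lower, 2 and 5, and 1 and 3. The median of all genes was 0.13, 0.04, -0.02 and -0.17 from the lowest to the highest bin. With this trend removed, Snrpd3, Hnrnpa0, Snrpe and Srsf3 still passed in MDTH, and Lsm4, Hnrnpll, Hnrnpa2b1 and Hnrnpa3 did not.

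**Figure D5:**
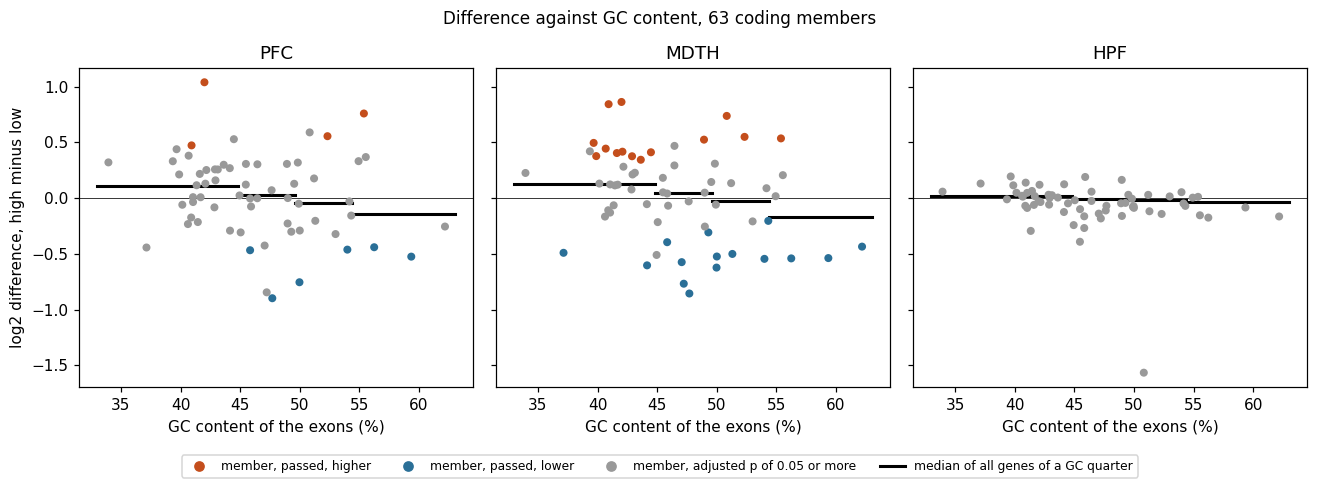
Log2 difference of high over low performers (y axis) against exon GC content in percent (x axis) for the members in each tissue; black lines give the median of all genes tested in each of 4 bins of GC content. In MDTH most points that passed as higher lie in the lowest bin, where the black line is at 0.13.

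Other genes of splicing were counted in 2 lists by the same test. Of 90 other genes of the spliceosome and of particle assembly, 12 rose and 13 fell in MDTH (27.8% in all, against 25% of all genes), 1 rose and 4 fell in PFC (5.56%, against 5.85%), and none passed in HPF, so the shares were near those of all genes. Strap, a component of the SMN complex that loads Sm rings, rose in both tissues, to 8387 ± 633 in high performers against 4890 ± 476 in low performers of MDTH (0.78, SE 0.10, adjusted p = 0.00429) and 6106 ± 97.1 against 4460 ± 152 in PFC (0.45, SE 0.07, adjusted p = 0.0207; SD, n = 3 each). Smn1, which encodes SMN itself, fell in MDTH (466 ± 12.4 against 807 ± 66.5, SD, n = 3 each; -0.79, SE 0.12, adjusted p = 0.00606). The speckle protein Srrm1 fell by 0.85 in MDTH (adjusted p = 0.00278) and 0.70 in PFC (adjusted p = 0.0239), Prpf38b fell by 0.69 in PFC (adjusted p = 0.0335), and Bud31 rose by 0.63 in MDTH (adjusted p = 0.00544). Clns1a, which holds Sm proteins before assembly, had a PFC difference of 0.56 that did not pass (adjusted p = 0.0557).

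Of 46 brain splicing regulators and SR protein kinases tested, 7 rose and 13 fell in MDTH (43.5% in all, against 25% of all genes), 2 rose and 4 fell in PFC (13.0%, against 5.85%), and none passed in HPF. Tardbp, which encodes TDP-43, rose in MDTH (11454 ± 1014 in high against 6439 ± 416 in low performers; 0.83, adjusted p = 0.00342) and in PFC (9578 ± 1162 against 5738 ± 686; 0.74, adjusted p = 0.0248; SD, n = 3 each). Nova1, a neuronal splicing regulator, fell by 1.09 in MDTH (SE 0.13, adjusted p = 0.00396), with Celf5 at -0.67 (adjusted p = 0.00364) and Celf1 at 0.49 (adjusted p = 0.00675). In PFC, Ptbp1, the repressor of neuronal exons, fell by 0.66 (adjusted p = 0.0185), Rbfox1, an activator of neuronal exons, fell by 0.48 (adjusted p = 0.0217), and the nuclear matrix protein gene Matr3 rose by 0.49 (adjusted p = 0.0185). In HPF the genes of smallest p were Cwc22 (0.46, adjusted p = 0.166), Syf2 (0.19, adjusted p = 0.396), Prmt5 (-0.34, adjusted p = 0.244) and Puf60 (-0.19, adjusted p = 0.333) of the first list. Of the second they were Qk (0.41, adjusted p = 0.221), Ptbp3 (0.32, adjusted p = 0.257), Rbfox3 (-0.28, adjusted p = 0.239) and Elavl2 (-1.18, adjusted p = 0.263).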

How the data were processed

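The signal deposited by the authors is a normalized count, that is, each gene's count over a factor for its library, as the table's own name states. The submitters' processing notes name STAR, Salmon and DESeq2, with no version and no role. Genome build, annotation and strand use are not given in the sources used here. Library totals lay between 50828589 and 59634490 normalized counts after that scaling, and 17137 of 48440 genes were at 0 in all libraries. Low values came out as whole reads, within 0.02, for only 21.9 to 68.1% of values per library, so no count test was run. Depths are estimates from the commonest low value.

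Groups were taken from the labels, and every column was matched to a library by name. The 3 high and 3 low performers of a tissue were compared within that tissue with limma 3.58.1 in R 4.3.3 (moderated two-sided test with a mean-variance trend) on log2(normalized count + 1), keeping genes whose mean over the fitted libraries reached 10. The scale understates changes of low genes. Differences between tissues and interactions came from 1 fit to all 18 libraries with 6 group means. All 64 members were tested in every fit, p-values were adjusted over all genes, and every adjusted p printed is from limma. Folds are 2 to the power of the log2 difference. The fits were tested on simulated data. Tables and figures were made with Python 3.11.15, pandas 2.3.3, numpy 2.4.6 and matplotlib 3.10.9. Coordinates, exon lengths and GC content come from GENCODE M21 on GRCm38, which holds 48058 (99.2%) of the identifiers, and promoters from RefSeq on GRCm38.p6.

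The members and gene lists were chosen with earlier results of these data known, so their counts are descriptions. Named genes were Snrpd3 and Hnrnpa0, the members that passed in a tissue (at most 10 a direction by smallest p, or the 3 of smallest p where fewer than 3 passed), the 3 of smallest p for each tissue difference and interaction, and 2 per direction of each list. Other members are given to complete a family or because they lay just outside the threshold, and were chosen after their values were seen. Alternatives changed the pseudocount (0.5 and 10), the filter (none and 50), the scaling (trimmed mean, equal median, equal totals without mitochondrial genes), the trend, the empirical Bayes step, the libraries fitted, a replicate block, GC or length trends (added after seeing the data) and each library in turn.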

Additional observations from a re-analysis of the deposited data

Results flagged for a closer look

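The performance difference itself differed between tissues for 13 members in MDTH minus HPF (20.3%, against 19% of genes). It did so for 9 members in HPF minus PFC (14.1%, against 9.14%), both by the interaction test in the limma fit to all 18 libraries. The 6 members given here are the 3 of smallest p in each comparison with HPF. For MDTH minus HPF, the difference of the high-minus-low differences was -0.60 for Hnrnpul1 (adjusted p = 0.000582), 0.70 for Srsf3 (adjusted p = 0.000600) and 0.69 for Snrpd2 (adjusted p = 0.00136). For HPF minus PFC it was -0.75 for Hnrnpa0 (adjusted p = 0.000967), -1.07 for Snrpe (adjusted p = 0.00172) and 0.83 for Snrpd3 (adjusted p = 0.00347). All 6 differed between high and low performers without overlap in both MDTH and PFC, and overlapped in HPF. All but Srsf3 (HPF minus PFC -0.33, adjusted p = 0.0659) also passed in the other comparison with HPF. Without replicate 3 of every group, Hnrnpa0 (adjusted p = 0.0952), Snrpe (0.128), Snrpd3 (0.112) and Snrpd2 (0.0831) did not pass. That setting leaves out both HPF libraries of lane L004, the only HPF lane with both groups. HPF libraries also had a greater estimated depth and other lanes than the rest, which cannot be told apart from tissue.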

How the results depend on the processing

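In PFC the main counts of 4 higher and 6 lower became 4 and 3 with no filter, and 1 and 1 with no mean-variance trend. They were 9 and 9 with all 18 libraries in the fit, and 0 and 0 under the replicate block. All genes went from 579 and 474 to 391 and 368, 25 and 27, 1362 and 1167, and 0 and 0 in that order. Leaving out single PFC libraries gave 0 to 4 higher, 0 to 7 lower and medians from -0.0029 to 0.063. Of all genes, 4 to 592 rose and 2 to 714 fell in those fits. Of the members, 2 and 2 passed without high performer 1 or low performer 1. In MDTH the 14 higher and 15 lower members became 9 and 10 with no trend, and 7 and 10 under the replicate block. With the GC trend removed they became 7 and 13. All genes went from 2233 and 2237 to 1461 and 1625, 1106 and 1319, and 2137 and 2110 in that order. The MDTH median of 0.083 became 0.15 with equal medians, -0.0031 with equal totals without mitochondrial genes and -0.021 with the GC trend removed. Single MDTH libraries left out gave 7 to 12 higher, 6 to 13 lower and medians from 0.072 to 0.12. Of all genes, 867 to 2003 rose and 972 to 2220 fell in those fits. In HPF 1 member, Lsm11, fell with all 18 libraries in the fit, where 95 of all genes rose and 170 fell. Member medians without single HPF libraries ran from -0.056 to 0.015. Small HPF differences changed sign: with single libraries left out, Snrpd3 ran from -0.17 to 0.027 and Hnrnpa0 from -0.040 to 0.070, and Hnrnpa0 was at -0.0068 with equal medians. Across tissues, 9 to 12 members differed for MDTH minus PFC without 1 replicate of every group, and interactions passed for 0 (MDTH minus PFC), 2 to 9 (MDTH minus HPF) and 0 to 5 (HPF minus PFC). With a correlation between libraries of the same name number they passed for 1, 21 and 15. Counts of all genes are not given for these fits across tissues, so the changes cannot be set against those of all genes. The causes were not tested. Within a tissue, high and low performers of the same replicate number did not deviate together (correlations from -0.15 to 0.09), so the main fits did not treat them as pairs. In HPF, however, replicate 3 of both groups came from lane L004, and replicate numbers stand for different name numbers across tissues. Between libraries of different tissues with the same name number the consensus correlation was 0.356. Of the named results, Srsf3 for MDTH minus PFC passed with that correlation (adjusted p = 0.0431). Depth is estimated, so precision rests on the spread of 3 libraries a group.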
